A study of Rattus norvegicus with 12 samples.

Results

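Metallothioneins are small cysteine-rich proteins that bind zinc, copper and cadmium, and *Mt1* and *Mt2A* are the widely expressed members. Their transcription is driven by MTF1, a zinc finger factor that binds metal response elements when free zinc in the cell rises. MTF1 also acts on *Slc30a1*, the zinc exporter of the plasma membrane, and represses *Slc39a10*, a zinc importer. Metallothionein genes respond to glucocorticoids and oxidative stress too. The genes described here were *Mt1*, *Mt2A* and *Mt1m*, the factor *Mtf1*, and the transporters *Slc30a1*, *Slc39a10* and *Slc39a14*, an importer of zinc, iron and manganese. They are 7 of the 21556 genes in the deposited table. They were chosen by the measured rise of *Mt1* and other metallothioneins with menthol, seen in menthol against control. Results of *Mt1* in the other comparisons were known as well. The tests given there for the metallothioneins and their sum are thus not independent of the choice. The comparisons address whether other zinc-responsive genes changed with *Mt1*.

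The cells were ND7/23, a hybrid line of rat dorsal root ganglion (DRG) neurons and mouse N18Tg2 neuroblastoma cells. The 4 groups of 3 libraries were control cells, cells given 100 μM menthol, cells given 100 ng/ml Wnt3a, and cells given menthol with Wnt3a at the same doses, each for 6 h. Menthol is an agonist of the cold receptor TRPM8, and Wnt3a is a secreted protein that activates Wnt/β-catenin signaling. The supplementary methods give the stimulation medium as DMEM with antibiotics, and no agent beyond these is named for the control cells. The paper states that menthol was kept dissolved in DMSO and names no solvent for the control or Wnt3a cells. Without DMSO in those cells, menthol and its solvent cannot be told apart here. The labels do not say that the libraries of a group came from separate cultures. The supplementary methods mention biological duplication of the samples but do not describe the cultures. The p-values thus measure the spread between these libraries, which may be technical.

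The libraries held 36914722 to 38837023 reads on genes. The label of sensory neuron rested on few of its markers. All 14 sensory neuron markers examined were in the table, but only *Uchl1* and *Isl1* reached a mean of 0.5 FPKM (read fragments per length of gene and per number of mapped fragments, a level per length). *Prph* and *Tubb3* were at 0 to 8 and 0 to 6 reads. The fibroblast markers *Col1a2* and *Thy1* had means of 114.7 and 141.1 FPKM, while *Dcn*, *Lum* and *Postn* were at 0.194, 0.0886 and 0.176 FPKM.

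Promoter sequences show where the letters of the metal response element lie in these genes. They were taken from RefSeq (rat build GRCr8), which held an entry for 5 of the 7 genes, and cover the 250 bases before the start of the gene, written 5′ to 3′ on the strand of the gene. Capitals mark the 7-letter core of the element, TGCACNC or TGCGCNC on either strand, where N is any base. The *Mt1* promoter lies at chr19:10832976-10833225 on the minus strand, the *Mt2A* promoter at chr19:10838709-10838958 on the minus strand, the *Slc30a1* promoter at chr13:106021769-106022018 on the plus strand and the *Slc39a10* promoter at chr9:62405183-62405432 on the plus strand. The first 3 are those of known MTF1 targets that are activated, and the last is that of the repressed importer.
Mt1 promoter: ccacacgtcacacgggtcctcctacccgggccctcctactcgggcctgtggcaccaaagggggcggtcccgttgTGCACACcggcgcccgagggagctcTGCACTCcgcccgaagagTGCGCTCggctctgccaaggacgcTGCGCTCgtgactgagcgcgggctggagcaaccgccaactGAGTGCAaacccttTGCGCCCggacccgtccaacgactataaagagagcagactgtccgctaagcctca
Mt2A promoter: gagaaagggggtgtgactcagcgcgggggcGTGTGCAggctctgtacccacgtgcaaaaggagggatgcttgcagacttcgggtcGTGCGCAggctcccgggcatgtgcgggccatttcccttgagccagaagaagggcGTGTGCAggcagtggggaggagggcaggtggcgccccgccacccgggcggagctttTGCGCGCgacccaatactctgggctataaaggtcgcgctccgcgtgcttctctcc
Slc30a1 promoter: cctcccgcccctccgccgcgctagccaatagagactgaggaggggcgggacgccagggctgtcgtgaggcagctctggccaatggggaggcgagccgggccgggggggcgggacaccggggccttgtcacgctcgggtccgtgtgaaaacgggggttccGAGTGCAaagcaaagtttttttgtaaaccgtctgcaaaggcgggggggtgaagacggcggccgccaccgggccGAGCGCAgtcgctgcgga
Slc39a10 promoter: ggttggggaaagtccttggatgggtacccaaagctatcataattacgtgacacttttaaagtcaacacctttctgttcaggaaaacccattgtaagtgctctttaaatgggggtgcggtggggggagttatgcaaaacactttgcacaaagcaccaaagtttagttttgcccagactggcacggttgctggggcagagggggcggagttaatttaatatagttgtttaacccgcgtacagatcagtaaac

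The core was found 6 times in the *Mt1* promoter, 4 times in that of *Mt2A*, 2 times in that of *Slc30a1* and 0 times in that of *Slc39a10*, with no overlapping matches. The *Mtf1* promoter held 2 matches. Of 33469 rat promoters of the same length, 20.6% held at least 1 match, 4.90% at least 2, 0.266% at least 4 and 0.0269%, or 9 promoters, at least 6. *Mt3* and *Mt4*, the metallothioneins next to *Mt1* and *Mt2A* in the reference, held 3 and 1. A match describes these letters only and not a bound site.

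*Mt2A* and *Mt1* were among the most abundant transcripts of these cells, ranking 74 and 314 of 21556 genes by mean FPKM. The third metallothionein, *Mt1m*, was scarce, with 21 to 106 reads in a library. RefSeq lists it as a pseudogene, while the deposited table calls it protein coding. Reads of such near-identical copies can be split among them, so its values are uncertain, as is to a lesser degree the division between *Mt1* and *Mt2A*. The other metallothioneins in the table were nearly silent: *Mt3* had 0 to 9 reads, *Mt4* 0 to 1 and *Mt1f* 0 to 2.

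In control cells, *Mt1* was at 157.7, 93.1 and 116.6 FPKM in replicates 1, 2 and 3. With menthol it was at 458.3, 312.5 and 323.7 FPKM. With Wnt3a it was at 116.6, 83.1 and 106.0 FPKM, and with menthol and Wnt3a at 287.3, 175.9 and 181.9 FPKM. All 3 menthol libraries lay above every library of the other groups, and the menthol with Wnt3a libraries lay above all control and Wnt3a libraries. The Wnt3a and control libraries overlapped. The group means were 122 ± 32.7 FPKM (SD, n = 3) in control, 365 ± 81.1 in the menthol group, 102 ± 17.1 in the Wnt3a group and 215 ± 62.6 in the group given both.

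*Mt2A* had the same order of groups at a higher level. It was at 790.3, 568.5 and 658.7 FPKM in control cells, at 1598, 1093 and 1172 FPKM with menthol, at 673.4, 556.0 and 646.3 FPKM with Wnt3a, and at 1189, 744.7 and 827.8 FPKM with both. The menthol libraries lay above all control and Wnt3a libraries, and the lowest of them lay below the highest library of menthol with Wnt3a. The lowest library of menthol with Wnt3a lay below the highest control library. *Mt1m* was at 2.11, 1.46 and 1.71 FPKM in control cells and at 6.90, 7.32 and 3.22 FPKM with menthol. It was at 3.91, 2.57 and 2.08 FPKM with Wnt3a and at 7.15, 3.06 and 1.80 FPKM with both, where 1 library stood well above the others and the group overlapped each of the other groups.

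The zinc-sensing factor and both importers were within narrow ranges. *Mtf1* was at 4.16, 4.17 and 4.03 FPKM in control cells, 3.64, 3.81 and 3.84 FPKM with menthol, 3.44, 3.25 and 4.21 FPKM with Wnt3a and 3.80, 3.83 and 3.88 FPKM with both. The menthol libraries lay below the control libraries, by a ratio of means of 0.914, and the Wnt3a libraries spanned both groups. *Slc39a10* had group means from 15.3 ± 0.681 FPKM with menthol to 16.2 ± 0.430 FPKM with Wnt3a. *Slc39a14* had group means from 9.08 ± 0.314 FPKM with Wnt3a to 9.42 ± 0.332 FPKM in control cells. For both importers every group overlapped every other.

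*Slc30a1*, the exporter, was near the limit of measurement, at 23 to 67 reads in a library and a mean of 0.453 FPKM. It was at 0.414, 0.533 and 0.525 FPKM in control cells, 0.631, 0.341 and 0.467 FPKM with menthol, 0.438, 0.374 and 0.231 FPKM with Wnt3a and 0.393, 0.414 and 0.675 FPKM with both. The menthol and control libraries overlapped, as did those of every other pair of groups compared. A change of *Slc30a1* smaller than its spread was not detectable at this depth.

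**Figure D1:**
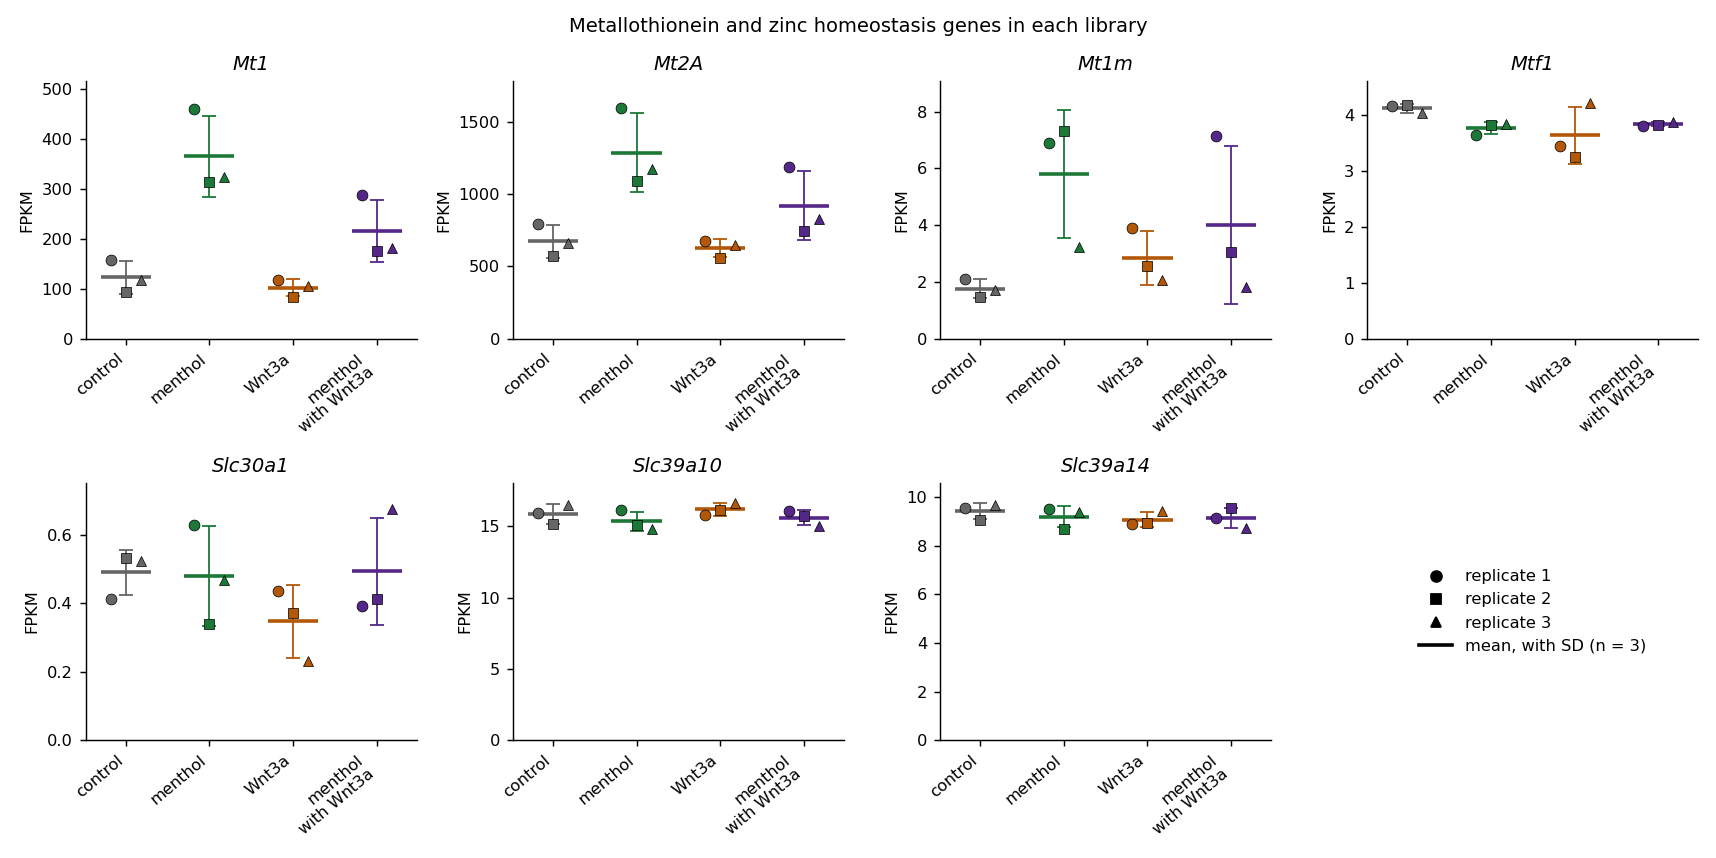
FPKM of the 7 genes in each of the 12 libraries, 1 panel per gene with its own axis from 0; marker shape gives the replicate, the horizontal line the mean and the bar the SD (n = 3). *Mt1* was highest in the menthol libraries and *Mt2A* had its highest group mean there, while *Slc39a10* and *Slc39a14* stayed at 14.8 to 16.6 and 8.70 to 9.68 FPKM.

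Menthol against control was the comparison from which the genes were chosen, so its values are a description without a test. The ratio of mean FPKM was 2.98 for *Mt1*, 1.91 for *Mt2A* and 3.31 for *Mt1m*. On the log2(FPKM + 0.1) scale, which understates changes of low genes, the differences were 1.59 for *Mt1* (SE 0.21), 0.93 for *Mt2A* (SE 0.17) and 1.60 for *Mt1m* (SE 0.40). The differences of the other genes were −0.13 for *Mtf1* (SE 0.08), −0.05 for *Slc39a10* (SE 0.05), −0.03 for *Slc39a14* (SE 0.05) and −0.05 for *Slc30a1* (SE 0.26). The 3 metallothioneins were higher without overlap of the groups, beside 7.48% of the 11451 tested genes, and *Mtf1* was lower without overlap, beside 8.38%. In bulk RNA, more cells making a transcript and more transcript per cell cannot be told apart.

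The comparison of menthol with Wnt3a against Wnt3a is of other libraries than menthol against control, but the limma fit shares its estimate of the spread across all groups. Its tests of metallothioneins are not independent of their choice. *Mt1* and *Mt2A* were higher in all 3 menthol with Wnt3a libraries than in any Wnt3a library, with ratios of mean FPKM of 2.11 and 1.47. A separation of the groups in this direction was found for 9.11% of the tested genes. The log2 differences were 1.05 for *Mt1* (95% interval 0.60 to 1.51) and 0.53 for *Mt2A* (0.17 to 0.90). In limma over all tested genes, neither passed at an adjusted p of 0.05, with 0.0760 for *Mt1* and 0.195 for *Mt2A*, and 2 of the 6 tested had an unadjusted p under 0.05, beside 14.5% of all tested genes. Over all genes, 6 (0.0524%) passed, all of them lower. With limma voom on the recovered reads, which weights genes by their read number, both passed with adjusted p-values of 0.00166 and 0.0277, and 1.26% of genes passed. The log2 difference of *Mt1* was 1.05 in both tools. That of *Mt2A* was 0.33 without replicate 1 of menthol with Wnt3a.

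The other genes did not pass in this comparison under either tool. *Mt1m* had a log2 difference of 0.30 (−0.57 to 1.17, limma adjusted p = 0.773), its groups overlapped, and the difference was −0.22 without replicate 1 of menthol with Wnt3a. *Mtf1* had a fold change of 1.06 with a 95% interval of 0.938 to 1.20. For *Slc39a10* the fold change was 0.965 (0.900 to 1.03), and for *Slc39a14* it was 1.01 (0.930 to 1.09). The intervals of *Mtf1*, *Slc39a10* and *Slc39a14* leave out changes of the size of *Mt1*, while that of *Mt1m* does not. That of *Slc30a1* was wider, at 1.33 (0.889 to 1.98, from a fit without a minimum on FPKM), and did not leave out a rise of the size of *Mt2A*.

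Wnt3a against control shares its control libraries with menthol against control. None of the 6 tested genes passed in limma, beside 0.437% of all genes, and 1 (*Mtf1*) had an unadjusted p under 0.05, beside 15.1%. With voom 0 passed, beside 2.49%. The log2 differences were −0.25 for *Mt1* (−0.70 to 0.21, limma adjusted p = 0.629), −0.10 for *Mt2A* (−0.46 to 0.27, adjusted p = 0.826) and 0.64 for *Mt1m* (−0.23 to 1.504, adjusted p = 0.493). *Mtf1* had −0.19 (−0.36 to −0.01, adjusted p = 0.310), and the transporters had 0.03 for *Slc39a10*, −0.05 for *Slc39a14* and −0.42 for *Slc30a1* (adjusted p = 0.649 in the fit without a minimum). No gene of the 7 separated the groups, beside 20.2% of tested genes. Without the Wnt3a replicate 3 library, in which *Mtf1* was at 4.21 FPKM, *Mtf1* passed at a log2 difference of −0.29 (limma adjusted p = 0.0429).

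Menthol with Wnt3a against menthol shares its menthol libraries with menthol against control. *Mt1* was lower in all libraries with Wnt3a added, at a ratio of mean FPKM of 0.589, a separation in the direction found for 5.31% of tested genes. The log2 differences were −0.78 for *Mt1* (−1.23 to −0.32) and −0.49 for *Mt2A* (−0.86 to −0.13). In limma, 0 of the 6 tested genes passed, with adjusted p-values of 0.364 and 0.527 for *Mt1* and *Mt2A*, beside 0.0961% of all genes, and 2 had an unadjusted p under 0.05, beside 6.72%. With voom, *Mt1* passed (adjusted p = 0.00301) and *Mt2A* did not (0.0663), beside 0.253%. *Mt1m* had a difference of −0.66 (−1.53 to 0.21), and those of *Mtf1*, *Slc39a10*, *Slc39a14* and *Slc30a1* lay between −0.01 and 0.03. Whether the difference made by menthol itself differed with and without Wnt3a was not tested.

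**Figure D2:**
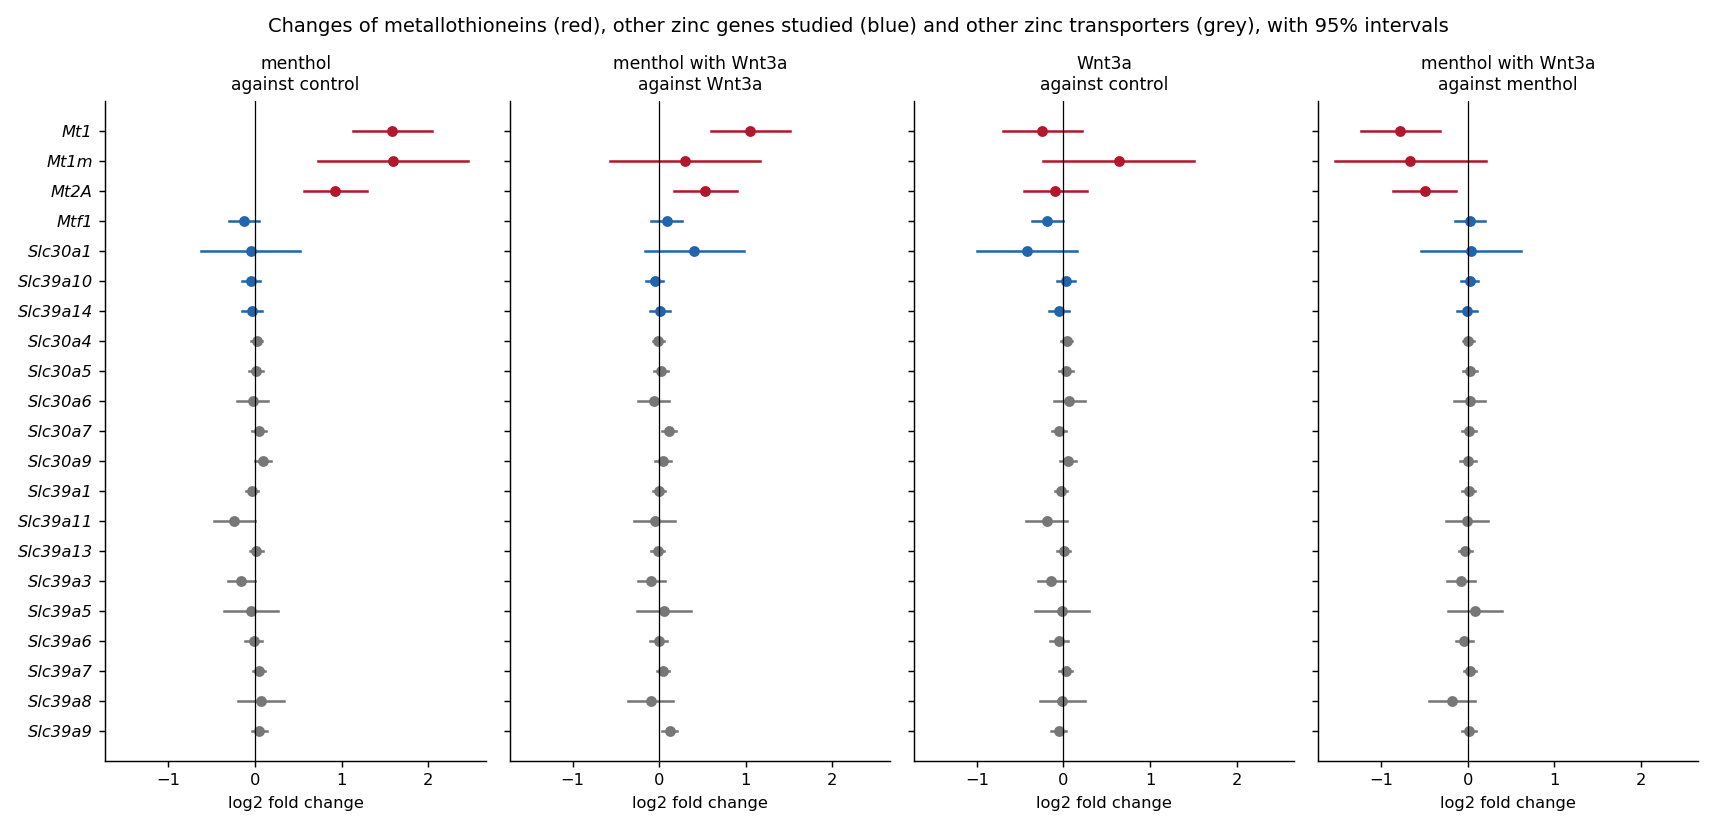
Log2 differences on the log2(FPKM + 0.1) scale in the 4 comparisons, with 95% intervals from limma, for the metallothioneins (red), the other 4 genes (blue) and 14 other zinc transporters (grey); those of menthol against control are a description for the red and blue genes. In menthol with Wnt3a against Wnt3a, *Mt1* and *Mt2A* stood at 1.05 and 0.53, while the grey genes lay between −0.10 and 0.12.

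The sum of the 3 metallothioneins depends little on how reads were divided among them. It was at 950.1, 663.1 and 777.0 FPKM in control cells, 2064, 1413 and 1499 FPKM with menthol, 793.9, 641.6 and 754.4 FPKM with Wnt3a and 1484, 923.7 and 1012 FPKM with both. The mean sum was 797 ± 145 FPKM (SD, n = 3) in control cells and 1658 ± 354 FPKM with menthol, given as a description. The menthol with Wnt3a mean was 1140 ± 301 FPKM against 730 ± 79.0 FPKM with Wnt3a, without overlap (log2 difference 0.62, exact two-sided permutation p = 0.1, the smallest that 3 against 3 allows). Wnt3a against control had a log2 difference of −0.12 (exact permutation p = 0.5) and menthol with Wnt3a against menthol −0.55 (exact permutation p = 0.2).

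*Mt1* and *Mt2A* did not move by the same proportion. *Mt1* made up 14.0 to 16.6% of the summed FPKM in control libraries and 21.6 to 22.2% in those with menthol. It made up 12.9 to 14.7% with Wnt3a and 17.99 to 19.36% when both were given. The 4 ranges overlapped only between control and Wnt3a. The ratio of *Mt2A* to *Mt1* was 5.59 ± 0.550 (SD, n = 3) in control cells and 3.53 ± 0.0734 in menthol cells, and 6.19 ± 0.465 with Wnt3a and 4.31 ± 0.215 when both were given. The ratio varied less between replicates than the levels did: in the menthol group its values lay between 3.49 and 3.62, while *Mt1* lay between 312.5 and 458.3 FPKM. It is given as a description, since menthol against control chose the genes.

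**Figure D3:**
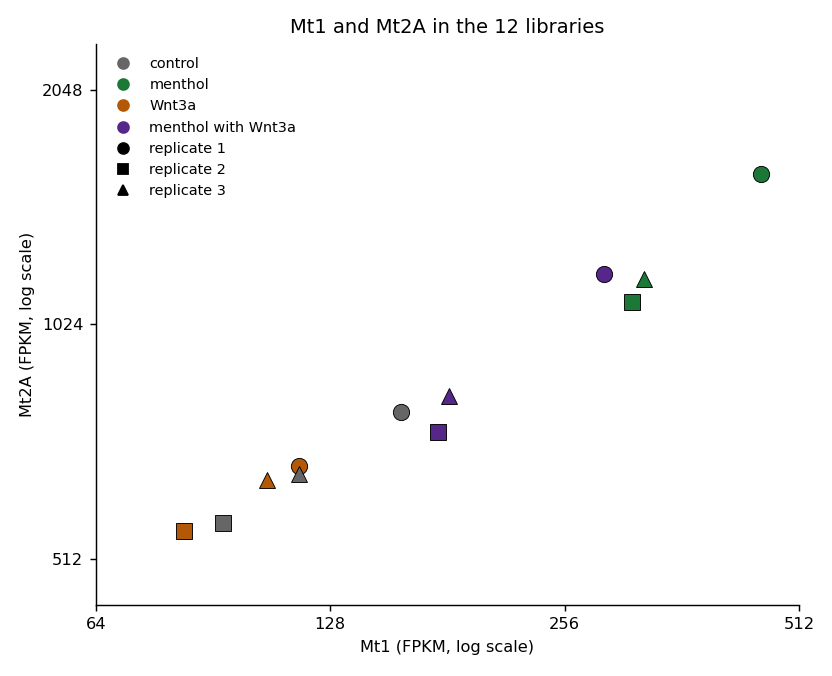
FPKM of *Mt2A* against that of *Mt1* in the 12 libraries, both on log scales, with groups by colour and replicates by shape. The libraries fall along 1 line from 83.1 and 556.0 FPKM in a Wnt3a library to 458.3 and 1598 FPKM in a menthol library.

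Over the 12 libraries *Mt2A* was the gene most like *Mt1* of 11450 tested genes, with a Pearson r of 0.986 on the log2(FPKM + 0.1) scale, and it ranked 2 with 0.975, below *Sf1* at 0.982, after each group was centred on its mean. The libraries share the 4 groups, so this is a description. The next 4 were *Mfap3* (0.935), *Osmr*, a cytokine receptor subunit (0.914), *Rpl7l1* (0.908) and *Pabpn1*, a nuclear poly(A)-binding protein (0.897). After centring these were at 0.52 (rank 1247), 0.47 (rank 1550), 0.70 (rank 421) and 0.92 (rank 16). Their changes were small beside that of *Mt1*. *Osmr* went from 10.1 ± 0.0612 FPKM in control to 11.98 ± 0.917 FPKM with menthol, and *Mfap3* from 8.21 ± 0.226 to 9.12 ± 0.170 FPKM. *Mt1m* ranked 92 with an r of 0.756. The r of *Slc39a14* was 0.08, that of *Mtf1* −0.04 and that of *Slc39a10* −0.31. Centring the groups gave 0.36 (rank 2302), 0.04 (rank 5177) and 0.57 (rank 932) for these 3 genes.

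The other zinc transporters gave a broader view of zinc handling. The Slc30 family moves zinc out of the cytosol and the Slc39 family moves it in. Of 21 such genes listed beside the 7, 18 were in the table and 14 were tested. Menthol libraries had higher levels than control for 8 of the 14 and lower levels for 6. None passed in limma or in voom in any of the 4 comparisons, beside 0.105% of genes passing in limma and 0.463% in voom for menthol against control. At an unadjusted p under 0.05 there were 2 in the comparison with control, 2 when menthol was added to Wnt3a and 0 in the other comparisons, beside 9.34% and 14.5% of all tested genes in the first 2. The median log2 difference of the 14 genes was 0.01 against control and −0.004 when menthol was added to Wnt3a, beside −0.002 for all tested genes in both.

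For menthol against control, the highest difference among them was that of *Slc30a9* (0.09, limma adjusted p = 0.529) and the lowest that of *Slc39a11* (−0.24, adjusted p = 0.533). For menthol with Wnt3a against Wnt3a, they were *Slc39a9* (0.12, adjusted p = 0.213) and *Slc39a8* (−0.10, adjusted p = 0.753). Abundant exporters were *Slc30a4* at a mean of 62.8 FPKM, *Slc30a9* at 39.5, *Slc30a5* at 34.3 and *Slc30a7* at 23.4 FPKM. Abundant importers were *Slc39a1* at 71.8 FPKM, *Slc39a6* at 63.9, *Slc39a7* at 56.4, *Slc39a13* at 52.0, *Slc39a9* at 19.3 and *Slc39a10* at 15.7 FPKM. These transporters were thus measured well above *Slc30a1*.

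Genes of copper and iron handling, which share carriers and binding proteins with zinc, did not pass either. Of 13 tested copper genes 0 passed in limma or voom, with 2 and 1 at an unadjusted limma p under 0.05 in the 2 menthol comparisons. As above, 9.34% and 14.5% of all tested genes were under that p in these comparisons. The extremes were *Sco1*, a chaperone of cytochrome oxidase assembly (0.19), and the metalloreductase *Steap3* (−0.17) for menthol against control, and the same genes at 0.13 and −0.24 when menthol was added to Wnt3a. Of 14 tested iron genes 0 passed in either tool, with 1 and 2 at an unadjusted p under 0.05. The extremes were *Slc11a2*, an importer of iron (0.11), and *Cp*, a ferroxidase (−0.04), for menthol against control, and the highest difference when menthol was added to Wnt3a was that of *Pcbp2* (0.08).

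Stress and hormone lists were examined because metallothionein genes respond to these signals too. Of 16 tested NRF2 antioxidant genes 0 passed in limma in any comparison, with 1 and 5 at an unadjusted p under 0.05 in the 2 menthol comparisons (9.34% and 14.5% of all tested genes). *Osgin1* (0.31) and *Abcc1* (−0.06) were the extremes for menthol against control. When menthol was added to Wnt3a they were *Slc7a11*, the cystine transporter (0.39, limma adjusted p = 0.235), and *Txn1* (−0.08). The list median was 0.03 and 0.08 in these comparisons. With voom, *Slc7a11* (adjusted p = 0.0396) and *Txnrd1* (log2 0.16, adjusted p = 0.0213) passed in this comparison, and *Prdx1* (0.14) and *Abcc1* (−0.20) for Wnt3a against control.

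Of 10 tested heat shock genes 0 passed in limma in any comparison, with 2 and 4 at an unadjusted p under 0.05 in the same comparisons (9.34% and 14.5% of all tested genes). *Hspa4l* was highest in both menthol comparisons, at 0.24 against control (limma adjusted p = 0.156) and 0.35 against Wnt3a (adjusted p = 0.0501), and *Hspb1* was lowest at −0.06 and −0.10. *Hspa4l* passed in voom in both, with adjusted p-values of 0.0297 and 0.00166. Of 10 tested glucocorticoid-responsive genes, *Sgk1* fell with Wnt3a against control (−0.16, limma adjusted p = 0.0444) and 0 passed in the menthol comparisons, with 2 and 2 at an unadjusted p under 0.05. *Errfi1* was highest (0.08 and 0.13) and passed in voom for menthol with Wnt3a against Wnt3a (adjusted p = 0.00886), while *Klf9* (−0.12) and *Cebpd* (−0.10) were lowest.

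Of 12 tested hypoxia-responsive genes, *Bnip3* (0.20, limma adjusted p = 0.00875) and *Ndrg1* (0.16, adjusted p = 0.0458) rose with Wnt3a against control, beside 0.437% of all tested genes passing. In the menthol comparisons 0 passed in limma or voom, with 3 and 3 at an unadjusted p under 0.05 (9.34% and 14.5% of all tested genes). There the extremes were *Bnip3* (0.10) and *Ankrd37* (−0.10) against control, and *Pdk1* (0.11) and *Hif1a* (−0.09) for menthol with Wnt3a against Wnt3a. Across the tested genes of these 6 lists and the 14 other zinc transporters, every limma difference in both menthol comparisons lay between −0.24 and 0.39. Each was below that of *Mt2A* in the same comparison. Listed genes under the FPKM minimum are left out. Among them, *Mt3* had 1.29 and 1.23 (0 to 9 reads) and *Pdk4* −0.87 and −0.27 (1 to 14 reads) in the fit without it.

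**Figure D4:**
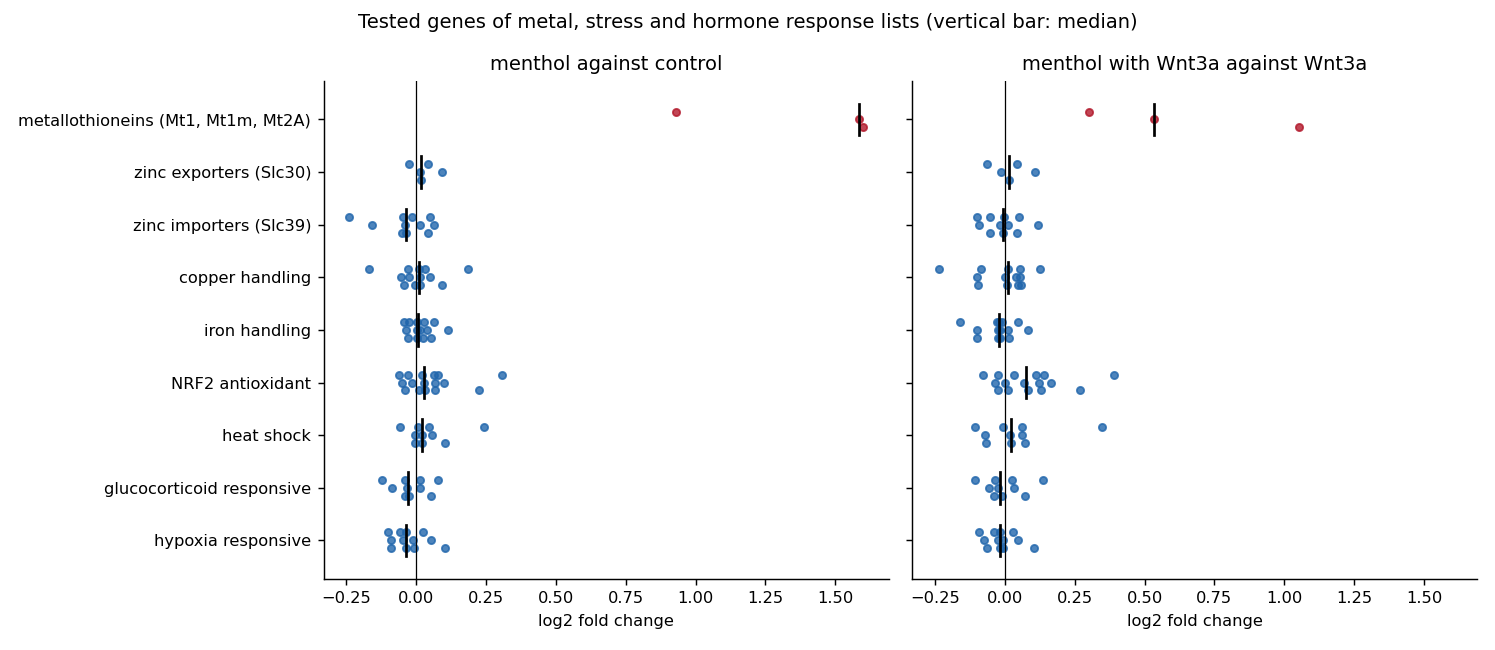
Log2 differences of the tested genes of 9 lists for menthol against control (left) and menthol with Wnt3a against Wnt3a (right), 1 point per gene, with the list median as a vertical bar. The metallothioneins lay at 0.93 to 1.60 and at 0.30 to 1.05, and each of the other 8 lists had a median between −0.04 and 0.08, beside −0.002 for all tested genes.

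Markers of other cell types were set beside the metallothionein values. The summed FPKM of 8 fibroblast markers was 283 to 290 in control libraries and 262 to 267 with menthol, and 273 to 277 with Wnt3a and 260 to 267 with both. It was lower with menthol than in control and lower with both than with Wnt3a, without overlap in either comparison. Of single tested genes, 8.38% were lower without overlap for menthol against control. All 5 tested fibroblast markers were lower with menthol than in control. Of these, 4 had an unadjusted p under 0.05 (9.34% of all tested genes) and 0 passed in limma (0.105%). *Col1a1* (−0.30) and *Col1a2* (−0.14) passed in voom, beside 0.463% of all tested genes. The part of the fibroblast markers in the metallothionein values was not tested. The summed FPKM of sensory neuron markers (105 to 126 over all libraries), of 6 neuroblastoma and sympathetic markers (15.02 to 19.40), of Schwann and satellite glia markers (2.27 to 3.27) and of skeletal muscle markers (8.38 to 13.04) overlapped between the groups with and without menthol. The muscle marker *Mb* had log2 differences of 1.81 for menthol against control and −0.76 when menthol was added to Wnt3a, at 3 to 74 reads. Those of *Cox6a2* were 0.99 and −1.32, at 2 to 25 reads, and those of *Tnnt3*, the most abundant of the 3 tested muscle markers, were −0.26 and −0.18, at 309 to 458 reads. None of the 3 passed in limma or voom (3 and 1 at an unadjusted p under 0.05, beside 9.34% and 14.5% of all tested genes). *Isl1*, a sensory neuron marker, rose with Wnt3a, by a log2 difference of 0.50 against control (limma adjusted p = 0.0121) and of 0.59 when Wnt3a was added to menthol (adjusted p = 0.00531).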

How the data were processed

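RNA of ND7/23 cells was sequenced in 12 libraries, and groups and replicate numbers were taken from the sample labels. By the supplementary methods, the authors used fastp to filter reads, HISAT to align them and HTSeq-count to count them. The submitters' processing notes name the rat build mRatBN7.2. The deposited values are FPKM, with 1 column per library and no pooling. How reads of mouse transcripts were assigned in this rat and mouse hybrid is not given in the sources used here. Other experiments of the study were not used here.

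Whole read counts were recovered from the FPKM steps for 21556 of 21556 genes (100%), of which 1804 were above 0 in 1 library only. On simulated data, 12 of 12 library totals and 20839 of 20879 genes (99.8%) were recovered. Values of 3 reads on 1 kb were 0.0772 to 0.0813 FPKM. Counting error only is covered by the reads given. Replicates differed by more than sampling noise (chi-square per degree of freedom 3.48 to 7.27).

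Because the deposited unit is FPKM, the main test was limma (version 3.58.1, R 4.3.3) on log2(FPKM + 0.1). The 11451 genes averaging 0.5 FPKM or more were tested, all 4 groups in 1 fit with a variance trend, and p-values were adjusted by Benjamini-Hochberg over them all. Genes passed at an adjusted p of 0.05. The study tested counts with DESeq2. *Slc30a1* lay under the minimum and was taken from a fit without it. On simulated data for menthol against control (11446 genes), 52 of 57 genes changed 1.5-fold, 72 of 72 changed 2.5-fold and 69 of 69 changed 4-fold passed, as did 12 of 11248 unchanged genes. The simulation gave every gene the same replicate dispersion, lower than that of *Mt1* and *Mt2A*, so these rates do not apply to them. Within groups, the SD was 16.8 to 29.1% of the mean for *Mt1* and 9.83 to 25.7% for *Mt2A*. Alternatives were other pseudocounts (0.01 and 1), other minimums, libraries centred on their median, fits of only the groups compared, a replicate block, limma voom on the recovered reads with TMM scaling, and leaving out each library. A voom fit with a mean of at least 10 reads in place of the FPKM minimum, and the alternatives for *Slc30a1*, were added after seeing the data.

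The members and all gene and marker lists were chosen with earlier results of these data known. The genes named were the 7 genes, other metallothioneins, Slc30 and Slc39 genes with a mean of at least 10 FPKM, the 5 genes most like *Mt1*, and, of each list, those that passed and the extremes, printed for the comparisons with menthol. Some genes that this rule covers are not reported here. The other genes that passed in voom alone, *Isl1*, *Uchl1* and the marker genes were named after their values were seen. Promoters came from RefSeq (GRCr8), and no deposited coordinates were used. Plots were drawn with matplotlib 3.10.9.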

Additional observations from a re-analysis of the deposited data

How the results depend on the processing

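Of 560 values of single genes under alternatives, 536 were classed as unchanged, as were 169 of 177 counts and summed values. In the tested comparisons, a value of a gene or sum was unchanged if it kept its direction and its side of the threshold. A count was unchanged if the same number of genes passed. Values of menthol against control had no test and were unchanged if they moved by less than the residual SD of the gene, whatever their sign. The number of the 6 tested genes that passed was 0 in each tested comparison. For menthol with Wnt3a against Wnt3a it became 2 (*Mt1* and *Mt2A*) in voom on the recovered reads and in voom with at least 10 reads, and for menthol with Wnt3a against menthol it became 1 (*Mt1*) in both. Leaving out a library gave 0 to 1 for Wnt3a against control (*Mtf1*, without Wnt3a replicate 3). The cause was not tested.

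Whether the replicate numbers pair the libraries was not settled. Deviations of same-numbered libraries correlated at −0.0551 to 0.153 (1 of 18 pairs over 0.1), those of others at −0.157 to 0.115, and 6 of 12 libraries correlated best with their own number. *Mt1* and *Mt2A* were 2 of 24 tested genes (0.21%) with their order of replicate numbers, 1 above 3 above 2, in all 4 groups. With the replicate block, 2 genes (*Mt1* and *Mt2A*) passed when menthol was added to Wnt3a (limma adjusted p = 0.000151 and 0.0112, with 0.21% of all tested genes passing) and 2 for menthol with Wnt3a against menthol (0.00198 and 0.0202, with 0.0873% passing).

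Small differences turned sign. *Slc39a14* for menthol with Wnt3a against Wnt3a became −0.0019 with libraries centred on their median. Leaving out a library gave −0.22 to 0.74 for *Mt1m* and −0.023 to 0.044 for *Slc39a14* in that comparison. With menthol against control it gave −0.23 to 0.13 for *Slc30a1* and −0.063 to 0.0045 for *Slc39a14*. With Wnt3a against control it gave −0.21 to 0.026 for *Mt2A*, −0.0028 to 0.060 for *Slc39a10* and −0.24 to 0.018 for the summed metallothioneins. When Wnt3a was added to menthol it gave −0.17 to 0.22 for *Slc30a1* (−0.15 without menthol replicate 2), −7.3e-05 to 0.060 for *Slc39a10* and −0.047 to 0.026 for *Slc39a14*. The log2 difference of *Mt1* lay between 0.83 and 1.18 for menthol with Wnt3a against Wnt3a and between −1.01 and −0.60 for menthol with Wnt3a against menthol under all alternatives. Those of *Mt2A* lay between 0.33 and 0.67 and between −0.69 and −0.33. For Wnt3a against control, that of *Mt1* lay between −0.43 and −0.047. For menthol with Wnt3a against menthol, that of *Mt1m* lay between −1.18 and −0.22. With 3 libraries a group, the exact permutation test cannot go below 0.1, and at 23 to 67 reads *Slc30a1* was measured too coarsely to show a small change.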
